A study of Mus musculus with 8 samples.

Results

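The ETS and KLF transcription factors Ehf, Elf3, Elf5, Spdef, Etv4, Etv5, Ets1, Ets2, Klf4 and Klf5 were followed in bipotential mouse embryonic liver (BMEL) cells after ectopic expression of GRHL2. These genes were chosen by symbol, with earlier results of these data known, and not all of them are restricted to epithelia. Of the 10, 9 are among the 18671 genes of the expression table, namely 7 ETS and 2 KLF genes. Elf5 has no row in the table, so its expression was not analysed here. BMEL cells are an established line from embryonic mouse liver that can give rise to hepatocytes or cholangiocytes, here grown in medium with IGFII, epidermal growth factor and insulin on type I collagen. RNA-seq was available for 4 samples transfected with a GRHL2 plasmid and 4 samples transfected with the pcDNA3 control plasmid, all harvested 48 h after transfection and numbered 1 to 4 in each group. The GRHL2 plasmid drives a Flag-tagged human GRHL2 cDNA from the EEF1A1 promoter and also encodes enhanced green fluorescent protein, so the groups differ by more than GRHL2. The methods name no sorting of transfected cells, and the transfected share of the cells is unknown. All values below are the deposited expression values on a log2 scale, corrected for transcript length. A difference of 1 is a doubling, and differences of genes with few reads are understated because the underlying regularized logarithm (rlog) shrinks them. Sequencing depth cannot be read from these values and is unknown.

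ETS factors share a DNA-binding domain that reads a GGAA core. Ehf, Elf3 and Elf5 form the branch restricted to epithelia, Spdef is the ETS factor of secretory epithelia such as goblet cells, Etv4 and Etv5 form the PEA3 branch that follows fibroblast growth factor and other receptor tyrosine kinase signals through the ERK kinases, and Ets1 and Ets2 are widely used ETS factors whose activity is raised by ERK phosphorylation. Klf4 and Klf5 are zinc finger factors that bind GC-rich sites, and in the gut Klf4 is known from differentiated cells and Klf5 from proliferating crypt cells. GRHL2 is a grainyhead factor that maintains epithelial identity and cell junctions, so the comparison asks which of these factors moved with it.

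Mouse Grhl2 itself was at 4.42 to 4.68 in the control samples and 5.65 to 6.96 in the GRHL2 samples, a log2 fold change of 1.71 with a standard error (SE) of 0.22 (adjusted p = 0.00100, limma). How much of it comes from reads of the human plasmid cDNA is not known. Of the liver progenitor markers Afp, Alb, Krt8, Krt18, Krt19, Hnf4a and Sox9, all 7 were in the table, with Alb the lowest at 5.25 and Krt8 the highest at 15.31 in the control samples. Their summed level spanned 16.57 to 16.74 in the control samples and 16.73 to 16.88 in the GRHL2 samples (log2 of the sum). By limma, 1 of the 7 was called lower, the fetal serum protein gene Afp (8.32 to 8.11, adjusted p = 0.0124), and none higher, with 2 higher at an unadjusted p under 0.05, where 10.5% of all genes were called higher and 5.91% lower. With the replicate number as a block, where 18.2% were called higher and 13.9% lower, 2 of the 7 were higher, the biliary and progenitor factor gene Sox9 (0.35, adjusted p = 0.000510) and the keratin gene Krt19 (0.16, adjusted p = 0.0109). The endothelial markers (5 of 5 in the table, summed 4.39 to 4.42 in the control and 4.36 to 4.49 in the GRHL2 samples), the blood markers (3 of 5, 6.41 to 6.61 and 6.61 to 6.69) and the mesenchymal markers (4 of 5, 5.49 to 5.77 and 5.63 to 5.90) were far below the liver progenitor sum, with Adgre1, Hbb-bt and Col3a1 not in the table. That sum is carried by the keratin genes Krt8, Krt18 and Krt19 (15.31, 14.76 and 15.05 in the control samples). Gene by gene the levels overlapped. In the control samples Cd68 (6.08) stood above Alb (5.25), Col1a1 (5.22) was close to Alb, and Csf1r was at 4.48. Among the endothelial, blood and mesenchymal markers Pdgfrb was called without the block, higher by 0.11 at a level near the bottom of the table (-0.23 to -0.12, adjusted p = 0.00886). With the block Kdr (0.13, adjusted p = 0.0411), Tek (0.09, 0.0234), Cd68 (0.16, 0.0205) and Col1a1 (0.13, 0.0281) were also called higher, and the part of any such cells in the results was not tested.

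Limma called 3 of the 9 factors higher in GRHL2 samples (Ehf, Elf3 and Etv4) and 1 lower (Ets1), at an adjusted p under 0.05 over all genes. Across all genes 10.5% were called higher and 5.91% lower. The other 5 were not called. The size of the differences ran from an increase of 1.16 for Ehf to a decrease of 0.33 for Ets1. The median absolute difference was 0.27 against 0.061 over all genes, and the median signed difference -0.01 against 0.01. These sets are unlike in level, as 7698 of all genes and 1 of the 9 had a mean under 5, where differences can be understated. In the lists examined below, the median absolute difference was 0.060 for other ETS, 0.14 for other KLF and SP, 0.16 for ERK output and 0.089 for target genes. Samples of the same replicate number deviated together, as did replicates 1 and 2, and 3 and 4, across the groups, and with the replicate number as a block 4 of the 9 were called higher, Etv5 being added, and 2 lower, Klf4 being added, where 18.2% and 13.9% of all genes were called in these directions and 32.1% in either. All 4 GRHL2 samples lay beyond all 4 control samples for 3 factors above (Ehf, Elf3 and Etv4) and for 3 below (Ets1, Klf4 and Spdef), a pattern that 14.3% and 9.47% of all genes showed in these directions. With 4 samples a group, the exact two-sided permutation test gives each of these 6 genes p = 0.0286, the smallest it can give. These counts describe 9 genes chosen with earlier results of these data known, and no test of the list was made. As the RNA was taken from whole cultures, fewer cells expressing a gene and less RNA of it per cell cannot be told apart.

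**Figure D1:**
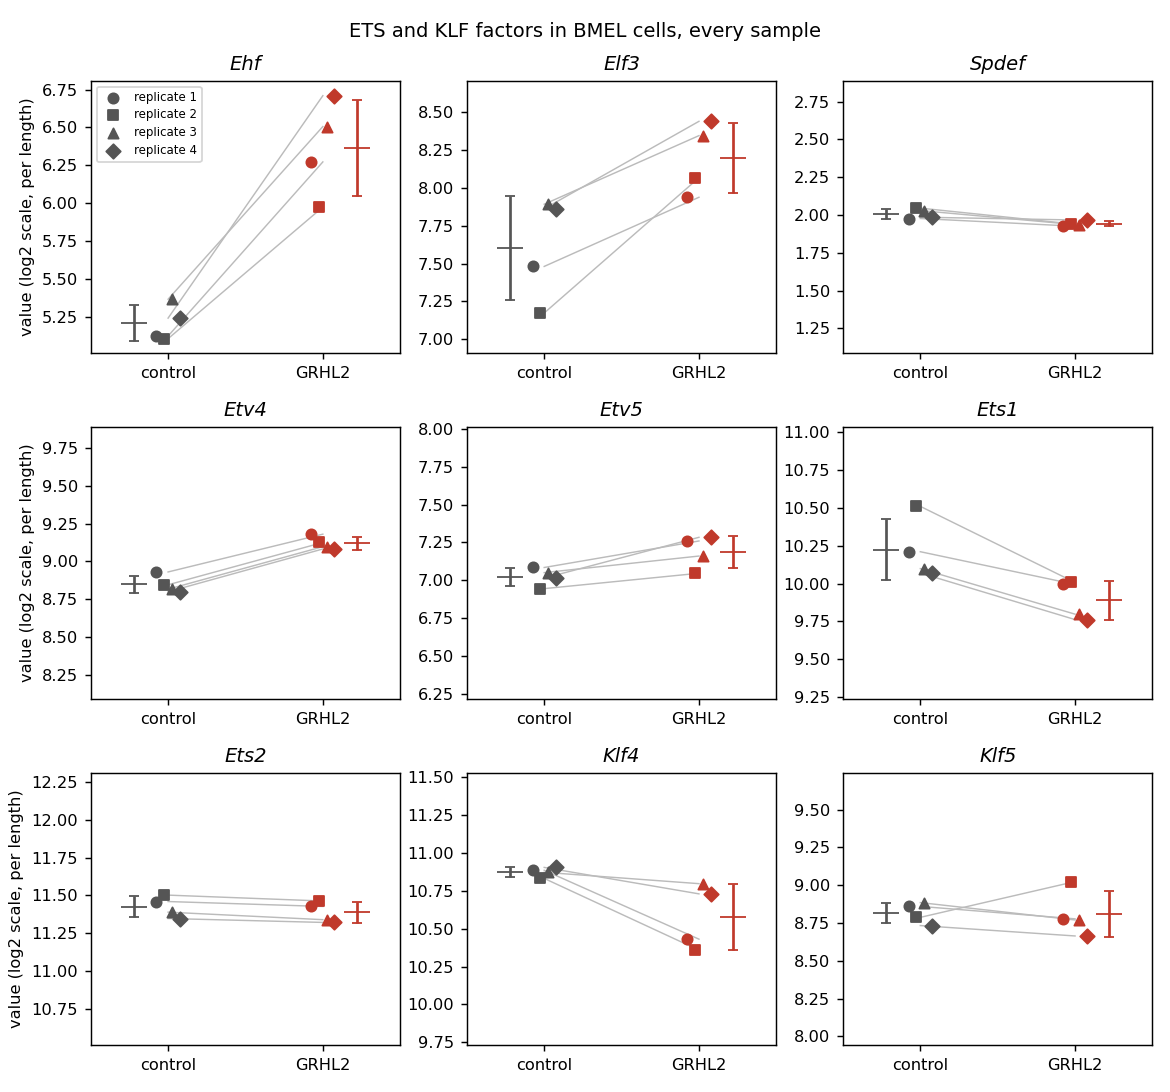
Deposited value (log2 scale, per transcript length) of each of the 9 factors in each sample, with 1 panel a gene and the control (pcDNA3) and GRHL2 samples side by side. Points are samples, lines join samples of the same replicate number, bars are the mean ± SD (n = 4), and each axis spans at least 1.8 log2 units. Ehf, Elf3 and Etv4 have all GRHL2 samples above all control samples, and Ets1, Klf4 and Spdef have them below, the last by less than the width of a point.

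Ehf, an epithelium-restricted ETS factor, had the largest increase of the 9. It is ENSMUSG00000012350 at chr2:103263433-103303278 on the minus strand of GRCm38, the build of all positions given here. Its values were 5.12, 5.10, 5.36 and 5.24 in control replicates 1 to 4 and 6.27, 5.97, 6.51 and 6.71 in GRHL2 replicates 1 to 4. The lowest GRHL2 sample was thus above the highest control sample. The mean rose from 5.21 ± 0.12 to 6.37 ± 0.32 (SD, n = 4), an increase of 1.16 on the log2 scale with a 95% interval of 0.85 to 1.46 (2.23-fold, adjusted p = 0.000594, limma). It ranks 20 among the 18671 genes by log2 fold change. GRHL2 minus control was 1.15, 0.87, 1.14 and 1.47 in the 4 replicate pairs, with replicate 2 the smallest and replicate 4 the largest. Ehf was also the lowest of the ETS and KLF factors here apart from Spdef, and its value in the GRHL2 samples remained under the lowest value of Etv5.

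The primer list of the study holds a pair designed for mouse Ehf transcripts, shown because it locates in the gene the transcripts that an RT-qPCR of Ehf reads. Capitals mark the bases that lie in the next exon across the junction of exons 3 and 4 of ENSMUST00000090475, a transcript of 9 exons.
Ehf forward: catctcaagtggaacgGCCA
Ehf reverse: gtcatggagatctgagcccg
The outer ends of the forward primer bound chr2:103276831-103279533, with the intron it spans inside that interval. The reverse primer lies in exon 6 at chr2:103273908-103273927. The product is 194 bases long, both primers lie in coding sequence, and 3 of the 8 annotated Ehf transcripts hold both. The deposited table sums Ehf by symbol, so the RNA-seq values do not separate those 3 transcripts from the others.

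Elf3, the relative of Ehf that is widespread in intestinal and airway epithelium, had the next largest increase. It is ENSMUSG00000003051 at chr1:135253575-135258568 on the minus strand. Its values were 7.48, 7.17, 7.89 and 7.86 in control replicates 1 to 4 and 7.94, 8.07, 8.35 and 8.44 in GRHL2 replicates 1 to 4. The groups did not overlap, but the highest control sample, replicate 3, was just below the lowest GRHL2 sample, replicate 1, and in both groups replicates 3 and 4 were above replicates 1 and 2. Elf3 rose from 7.60 ± 0.34 to 8.20 ± 0.23 (SD, n = 4), an increase of 0.60 on the log2 scale with a 95% interval of 0.23 to 0.97 (1.51-fold, adjusted p = 0.0362, limma). The 4 replicate pairs differed by 0.46, 0.89, 0.45 and 0.58. The call was lost without GRHL2 replicate 3 (adjusted p = 0.0899), GRHL2 replicate 4 (0.0906), control replicate 1 (0.0993) or control replicate 2 (0.0702). It was also lost with replicates 3 and 4 averaged (0.0736) and with no mean-variance trend in limma (0.0646). With the replicate block the adjusted p of Elf3 was 0.000449. Exons of Elf3 overlap those of Gm26642 on the opposite strand, and counting without regard to strand cannot tell their reads apart. Gm26642 was at 0.99 ± 0.039 in the control and 0.97 ± 0.054 in the GRHL2 samples (SD, n = 4).

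The GRHL recognition sequence is AACCGGTT, and its shorter form AACCGG or, on the other strand, CCGGTT, both contained in the full sequence, was searched in the 250 bases before the starts used by RefSeq. For Elf3 and Ets2 that start lies downstream of the gene start that GENCODE gives, so the stretches of 30 bases printed here are inside the GENCODE genes. Promoter entries were found for 6 of the 10 factors (Elf3, Elf5, Spdef, Etv5, Ets2 and Klf4), in 8 sequences. The shorter form was present in those of Elf3 and Ets2, and 5.62% of all 32851 promoter sequences hold it in this window. The full sequence was in none of the 8, against 0.116% of all. These windows are shown, as those of the 8 sequences that hold it, with the shorter form in capitals, read 5′ to 3′ on the strand of the gene (RefSeq sequence, GRCm38).
Elf3, 68 to 63 bases before the RefSeq start: agctcaggttacAACCGGggacgtacgccg
Ets2, 182 to 177 bases before the RefSeq start: gcataacgcccgAACCGGgctccaggagca
Ets2, 9 to 4 bases before the RefSeq start: tcacccctgctgtcccctcccCCGGTTccc
The Elf3 window is chr1:135258523-135258552 on the minus strand, inside the first UTR exon of ENSMUST00000003135. The Ets2 windows are chr16:95702213-95702242 and chr16:95702377-95702406 on the plus strand, both in a UTR exon of ENSMUST00000023612. A match of these letters is a description of the sequence, and binding was not measured in these samples.

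Spdef (ENSMUSG00000024215, chr17:27714352-27728955, minus strand) was close to the lower end of the table, with 1.98, 2.05, 2.03 and 1.99 in the control and 1.93, 1.94, 1.94 and 1.97 in the GRHL2 samples. The groups did not overlap, but the highest GRHL2 sample was only just below the lowest control sample. The mean was 2.01 ± 0.033 in the control and 1.94 ± 0.018 in the GRHL2 samples (SD, n = 4), a difference of -0.07 with a 95% interval of -0.12 to -0.02 that was not called (adjusted p = 0.0597, limma). With each sample corrected for the GC content of transcripts, it was -0.12 and called (adjusted p = 0.0103), whereas with an equal upper quartile it was -0.045 (adjusted p = 0.145) and with an equal sum -0.043 (adjusted p = 0.299). The goblet cell factor thus stayed at a low level in both groups while its relatives Ehf and Elf3 rose.

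Among the PEA3 factors, Etv4 (ENSMUSG00000017724, chr11:101769742-101785371, minus strand) had the most even increase of the 9. Its values were 8.93, 8.85, 8.82 and 8.80 in control replicates 1 to 4 and 9.18, 9.13, 9.10 and 9.08 in GRHL2 replicates 1 to 4. The order of the replicates was the same in both groups, and the pair differences lay between 0.25 and 0.28. Etv4 rose from 8.85 ± 0.058 to 9.12 ± 0.043 (SD, n = 4), an increase of 0.27 on the log2 scale with a 95% interval of 0.17 to 0.38 (1.21-fold, adjusted p = 0.00428, limma).

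Etv5 (ENSMUSG00000013089, chr16:22381309-22439719, minus strand), the closest relative of Etv4 in the list, was at 7.08, 6.94, 7.05 and 7.01 in the control and 7.26, 7.05, 7.16 and 7.28 in the GRHL2 samples. GRHL2 replicate 2 fell among the control samples, so the groups overlapped. The difference of 0.16 (95% interval 0.03 to 0.30) was not called without the replicate block (adjusted p = 0.0928; exact permutation p = 0.0857) and was called with it (adjusted p = 0.0177). All 4 replicate pairs were higher in the GRHL2 sample, by 0.10 to 0.27. Without GRHL2 replicate 2, the difference was 0.21 (adjusted p = 0.0300). The interval of Etv5 overlaps that of Etv4, and the difference between both genes was not tested.

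Ets1 (ENSMUSG00000032035, chr9:32636221-32757820, plus strand), known from lymphoid, endothelial and invasive cells, was the one of the 9 called lower without the replicate block. Its values were 10.21, 10.51, 10.10 and 10.07 in the control and 9.99, 10.01, 9.80 and 9.76 in the GRHL2 samples. The groups did not overlap, and control replicate 2 was the highest sample. Ets1 fell from 10.22 ± 0.20 to 9.89 ± 0.13 (SD, n = 4), a difference of -0.33 with a 95% interval of -0.56 to -0.11 (adjusted p = 0.0493, limma). The pair differences were -0.22, -0.50, -0.30 and -0.31. The call was lost on leaving out GRHL2 replicate 1, 3 or 4 or control replicate 1, 2 or 3, with adjusted p of 0.0648, 0.117, 0.119, 0.104, 0.0701 and 0.0572 in that order. It stood at 0.00114 with the replicate block.

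Ets2 (ENSMUSG00000022895, chr16:95702075-95721051, plus strand) had the highest level of the 9 and moved least among the ETS factors, with 11.46, 11.50, 11.39 and 11.35 in the control and 11.43, 11.46, 11.34 and 11.32 in the GRHL2 samples. The groups overlapped over most of their range. The difference was -0.04 with a 95% interval of -0.15 to 0.08 (adjusted p = 0.677, limma), an interval that leaves out the decrease measured for Ets1, although the difference between both genes was not tested.

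Klf4 (ENSMUSG00000003032, chr4:55527143-55532466, minus strand) had 10.89, 10.83, 10.87 and 10.91 in the control and 10.43, 10.36, 10.80 and 10.73 in the GRHL2 samples. All GRHL2 samples were below all control samples, but replicates 1 and 2 by far more than replicates 3 and 4. The replicate pairs differed by -0.46, -0.47, -0.08 and -0.17. The mean was 10.87 ± 0.031 in the control and 10.58 ± 0.22 in the GRHL2 samples (SD, n = 4), a difference of -0.29 with a 95% interval of -0.50 to -0.09 that was not called without the replicate block (adjusted p = 0.0571, limma) and was called with it (adjusted p = 0.00969). Without GRHL2 replicate 3 the difference was -0.37 (adjusted p = 0.0230) and without GRHL2 replicate 4 it was -0.35 (adjusted p = 0.0469).

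Klf5 (ENSMUSG00000005148, chr14:99298691-99315036, plus strand) was at 8.86, 8.79, 8.88 and 8.73 in the control and 8.78, 9.02, 8.77 and 8.66 in the GRHL2 samples. GRHL2 replicate 2 was the highest sample and GRHL2 replicate 4 the lowest, so the groups overlapped in full. The difference was -0.01 with a 95% interval of -0.18 to 0.16 (adjusted p = 0.964, limma). Klf5 was lower in 3 of the 4 replicate pairs and higher by 0.24 in the pair of replicate 2.

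**Figure D2:**
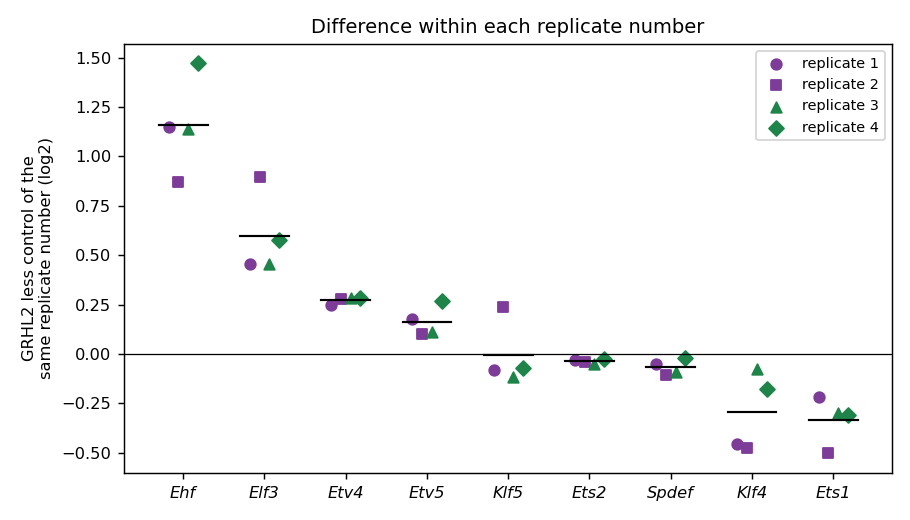
Difference in value (log2 scale) between the GRHL2 and control samples of the same replicate number for each of the 9 factors. Purple points are replicates 1 and 2, green points replicates 3 and 4, and the black line is the mean of the 4 pairs. The 4 pairs of Etv4 lie within 0.25 to 0.28, those of Ehf between 0.87 and 1.47, and for Klf4 the pairs of replicates 1 and 2 lie below those of replicates 3 and 4.

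The labels name no batch, and the group difference was taken separately in replicates 1 and 2 and then in replicates 3 and 4. For Ehf they were 1.01 and 1.31, for Elf3 0.68 and 0.52, for Etv4 0.26 and 0.28, for Etv5 0.14 and 0.19, for Ets1 -0.36 and -0.30, and for Klf4 -0.465 and -0.125. These 6 factors kept their direction within both sets of replicates, as did Spdef (-0.08 and -0.06) and Ets2 (-0.04 in both). Klf5 did not, with 0.08 and -0.09.

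By level per transcript length, averaged over the 8 samples, the order was Ets2 (11.41), Klf4 (10.73), Ets1 (10.06), Etv4 (8.98), Klf5 (8.81), Elf3 (7.90), Etv5 (7.11), Ehf (5.79) and Spdef (1.98). Each gene was above the next in all 8 samples, except Etv4 over Klf5, which held in 7 of 8. Etv4 and Klf5, with SDs of 0.15 and 0.11 over the 8 samples, are therefore the only neighbours in this order whose ranks changed between samples. The median level of the 9 factors was 8.81 against 6.45 for all genes, and Spdef alone was under 5. The largest increase was thus that of the lowest gene but one, and the called decrease that of the third gene in the order.

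The wider ETS family was compared to see whether the pattern reached beyond the listed ETS factors. Of 19 other ETS genes, 16 were in the table (Erg, Etv3l and Spic were not), and limma called 2 higher and 1 lower, close to the share of all genes called (16.4%). The median difference was 0.01. Both genes called higher had low levels, namely Fev (2.79 to 2.95, a difference of 0.16 with adjusted p = 0.00101, and of 0.09 with adjusted p = 0.0275 after the GC correction), an ETS factor of serotonin neurons, and Etv1 (1.5 to 1.61, adjusted p = 0.00836), the third PEA3 factor. Erf, an ETS repressor that ERK moves out of the nucleus, fell from 9.86 to 9.67 (log2 fold change -0.19, SE 0.050, adjusted p = 0.0305), and it was called in 3 of the 8 fits that left out a sample (adjusted p 0.0331 to 0.0880). With the replicate block 4 were called higher and 2 lower, beside 18.2% and 13.9% of all genes, adding Elk3 (0.21, adjusted p = 0.00174), Etv6 (0.13, 0.0299) and Gabpa (-0.15, 0.0157). Fli1, the gene next to Ets1 on chromosome 9, was at 3.21 and 3.24 (adjusted p = 0.484).

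The other KLF and SP genes numbered 20 of 24 in the table (Klf14, Klf17, Sp5 and Sp6 were not), and 3 were called higher and 6 lower, beside 10.5% and 5.91% of all genes. The median difference was 0.004. The 6 lower genes were Sp4 (6.44 to 5.96, log2 fold change -0.49, SE 0.071, adjusted p = 0.00181), Klf10 (10.32 to 10.05, adjusted p = 0.0153), Sp1 (10.23 to 9.98, adjusted p = 0.0145), Klf11 (7.66 to 7.46, adjusted p = 0.0374), Sp3 (9.97 to 9.79, adjusted p = 0.0354) and Klf7 (6.13 to 5.95, adjusted p = 0.0197). Klf11 was called in 1 of the 8 fits that left out a sample, and Sp4, Klf10 and Sp1 in all 8. With replicates 3 and 4 averaged only Sp4 was still called lower, and the adjusted p was 0.0643 for Klf10 and 0.0610 for Sp1. Sp1, Sp3 and Sp4 are broadly used activators of GC-rich promoters, whereas Klf10 and Klf11 are repressors induced by TGFβ. The decrease of Sp4 was larger in size than that of any of the 9 factors, a difference that was not tested. The 3 higher genes were Klf1 (3.0 to 3.26, adjusted p = 0.000563), the erythroid KLF, Sp9 (1.85 to 2.04, adjusted p = 0.00500) and Klf12 (0.65 to 0.70, adjusted p = 0.0289, called in 1 of the 8 fits that left out a sample). All 5 ETS, KLF and SP genes called higher outside the 9 factors were thus under a level of 5, and with genes under a mean of 5 left out limma called 0 genes of either list higher, with 1 ETS gene and 0 KLF or SP genes higher at an unadjusted p under 0.05. Klf2 (0.17, adjusted p = 0.0550, with the block 0.00604) and Klf6 (-0.22, 0.488, with the block 0.00168) were called with the replicate block only.

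**Figure D3:**
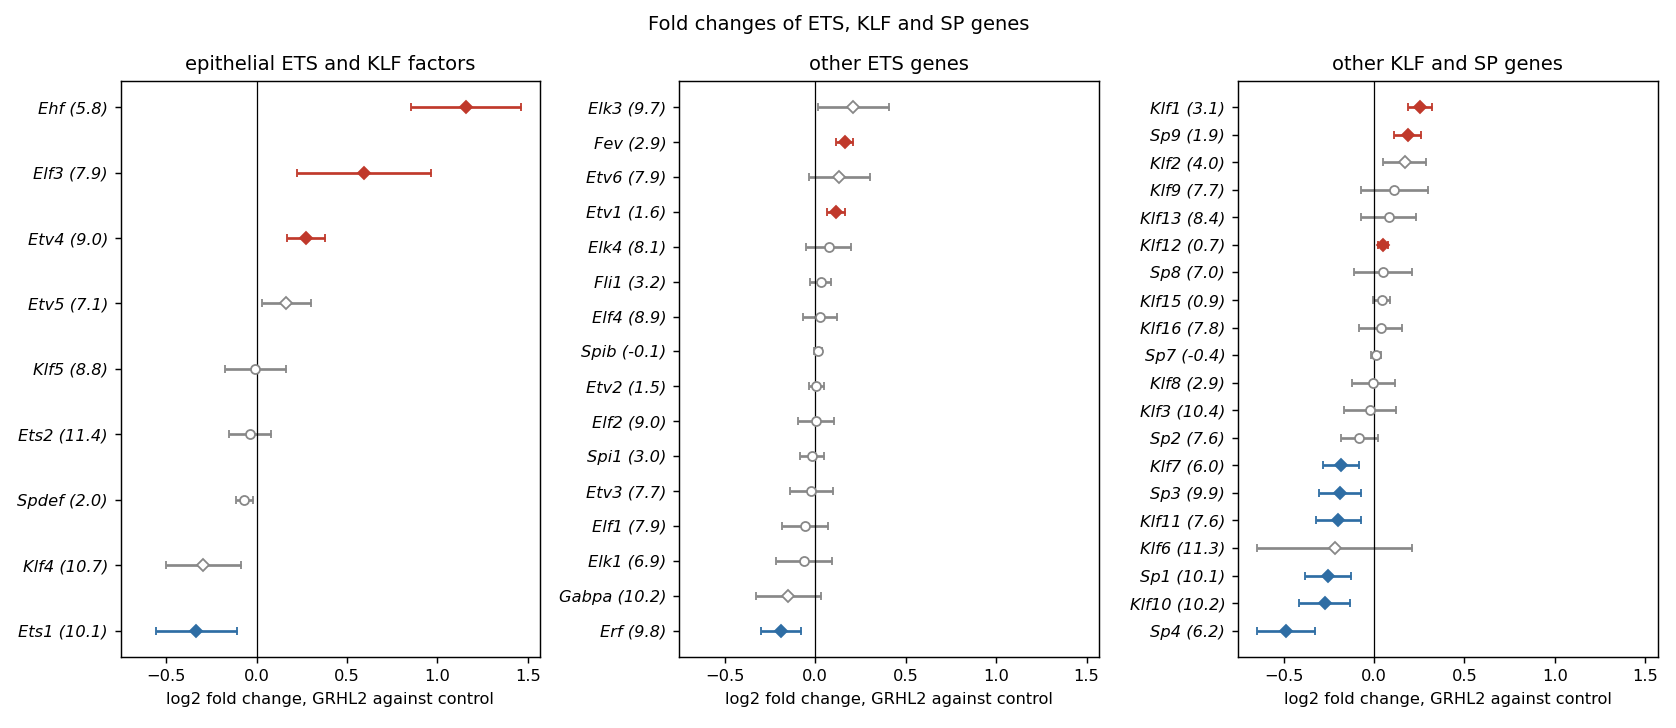
Log2 fold change between GRHL2 and control samples (x axis) for the 9 factors, the other ETS genes and the other KLF and SP genes in the table, with bars for the 95% interval of limma. Filled points were called (red higher, blue lower), diamonds had an adjusted p under 0.05 with the replicate block, and the number in brackets is the mean value over the 8 samples. Ehf at 1.16 and Elf3 at 0.60 lie to the right of every other gene shown, and Sp4 at -0.49 lies to the left of every other gene.

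As Etv4 and Etv5 are read as outputs of ERK signalling, 15 further genes of that output were examined, and all 15 were in the table. Limma called 2 higher, Egr1 (5.70 to 7.73, log2 fold change 2.03, SE 0.27, adjusted p = 0.00124), an immediate early zinc finger factor, and Spred1 (8.63 to 8.81, adjusted p = 0.0356), an inhibitor of ERK signalling that was called in 2 of the 8 fits that left out a sample. The 2 of 15 are near the share of all genes called higher. Limma called 0 of the 15 lower, with 1 lower at an unadjusted p under 0.05. The median difference was 0.12 and 12 of 15 were above 0. With the replicate block 7 were called higher and 2 lower, beside 18.2% and 13.9% of all genes, the former including the phosphatase gene Dusp6 (0.22, adjusted p = 0.00153 with the block and 0.0679 without) and the feedback inhibitors Spry2 (0.22, 0.0167 and 0.119), Spry4 (0.17, 0.0356 and 0.0703) and Spry1 (0.16, 0.0168 and 0.253), and the early response gene Ier3 (0.12, 0.0492 and 0.503). The 2 lower were Fosl1 (-0.41, 0.000698 and 0.147), an AP-1 subunit, and Epha2 (-0.26, 0.000417 and 0.245), a receptor tyrosine kinase.

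Of 15 genes known as targets of the factors in other tissues, 11 were in the table (Agr2, Csn2, Wap and Mmp3 were not), and limma called 3 higher, beside 10.5% of all genes. The target with the largest increase was Plau, the urokinase gene known as a target of ETS factors, from 7.19 to 7.84 (log2 fold change 0.65, SE 0.061, adjusted p = 0.000207). Cdh1, which encodes E-cadherin and is known as a target of Klf4, rose from 12.21 to 12.50 (0.29, SE 0.070, adjusted p = 0.0199, called in 5 of the 8 fits that left out a sample). Lcn2, known as a target of Elf3, was higher by 0.06 at a level of 1.48 to 1.54 (adjusted p = 0.0485), a call kept in 1 of the 8 fits that left out a sample and lost with the GC correction (adjusted p = 0.163). With the replicate block 4 of the 11 were called higher, Foxa3 being added, beside 18.2% of all genes. Limma called 0 of the 11 lower, with 1 lower at an unadjusted p under 0.05, and the replicate block called 1 of the 11 lower, the cell cycle inhibitor Cdkn1a (-0.14, adjusted p = 0.0117), beside 5.91% of all genes called lower without the block and 13.9% with it. The targets of Spdef in goblet cells, Foxa3 (0.28, adjusted p = 0.0942, with the block 0.00141), Creb3l1 (-0.02, 0.854), Muc5ac (0.07, 0.659) and Tff3 (-0.02, 0.663), were not called without the block. That the list holds targets does not show that the 9 factors act on them in these cells.

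**Figure D4:**
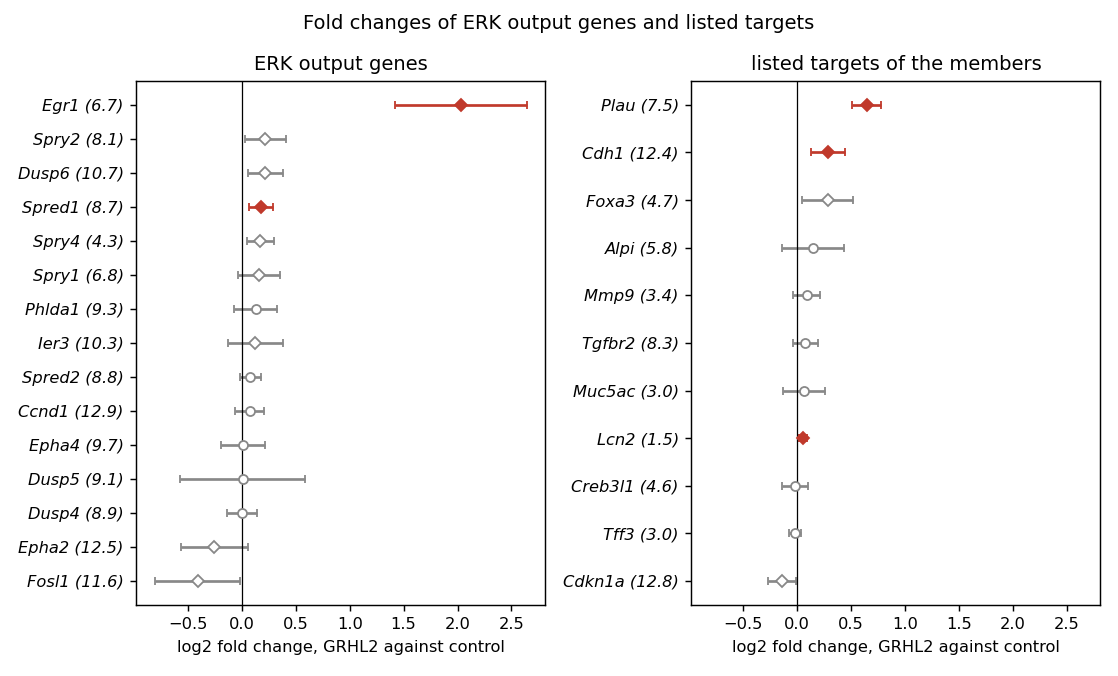
Log2 fold change between GRHL2 and control samples (x axis) for the ERK output genes and the known targets in the table, with bars for the 95% interval of limma. Filled points were called, diamonds had an adjusted p under 0.05 with the replicate block, and the number in brackets is the mean value over the 8 samples. Egr1 lies at 2.03 and Plau at 0.65, to the right of the other points, and Fosl1 at -0.41 is the lowest point.

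Other factors of epithelial identity were set beside Ehf and Elf3. Ovol1 and Ovol2, zinc finger repressors that hold back mesenchymal genes, rose by 0.59 (4.38 to 4.96, adjusted p = 0.00210) and 0.40 (3.65 to 4.05, adjusted p = 0.000549). Grhl1 was higher by 0.24 (adjusted p = 0.0969, with the block 0.0168) and Grhl3 was at 0.26 and 0.27 (adjusted p = 0.421). Ehf and Elf3 therefore stood above Ovol1 and Ovol2 in level, and Ehf moved more than either Ovol gene, a difference that was not tested.

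The 5 genes whose values followed those of Ehf most closely over the 8 samples were Pitpnm3 (Pearson's r 0.995), Cntnap2 (0.994), Gstt3 (0.986), Slc38a3 (0.985) and Ppp1r1b (0.984). The samples fall into both groups, so any gene with a steady difference scores high. Pitpnm3 rose by 0.69 (3.76 to 4.45) and Slc38a3, an amino acid transporter gene, by 0.34 (5.44 to 5.77), whereas Cntnap2 (0.09 at a level of 0.67 to 0.76), Gstt3 (0.15) and Ppp1r1b (0.09) moved by much less than Ehf did. With the GC correction Ppp1r1b was at 0.052 and no longer called (adjusted p = 0.118, and 0.129 with the block), and with replicates 3 and 4 averaged its adjusted p was 0.0579. In each of the 5, as in Ehf, GRHL2 replicate 4 was the highest sample and GRHL2 replicate 2 the lowest of its group.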

How the data were processed

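RNA-seq of 8 BMEL samples (4 GRHL2, 4 control) was used. The deposited table is named for FPKM, but its values are on a log2 scale per transcript length (-2.85 to 18.01, with 4.81% below 0). The submitters' processing notes name HISAT2 2.2.1, HTSeq 0.9.1, DESeq2 1.40.2, mm10 and GRCm39. The methods for bulk RNA-seq open with the download of public data and are taken here to cover these samples. They state that the authors counted exons without regard to strand, removed genes with few reads, and divided the rlog by transcript length. Adding log2 length (GENCODE M21, 18428 of 18671 genes) levelled the lower limit of genes across 5 length groups to within 0.098, against 2.47 without. The log2 fold changes are therefore differences of rlog values.

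All 18671 genes were fitted with limma 3.58.1 in R 4.3.3 (2 groups, mean-variance trend, Benjamini-Hochberg adjustment, threshold 0.05), after tests on simulated data. The plan allowed for linear values and a pseudocount, which log2 values did not need. The replicate numbers in the labels pair the samples: same-numbered samples correlated at 0.474 to 0.645 in their deviations. Different numbers correlated at 0.344 and 0.436 within replicates 1 and 2, at 0.500 and 0.602 within replicates 3 and 4, and at -0.611 to -0.399 between these sets, so the samples fall into these sets as well as into pairs. Replicates 3 and 4 were the closest in each group (root mean square difference 0.0723 and 0.0726, others 0.0942 to 0.174), and no values were identical. The study describes 4 independent biological replicates.

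The factors and gene lists were chosen with earlier results of these data known. The text names the 10 factors, Grhl2, Grhl1, Grhl3, Ovol1 and Ovol2, up to 4 called genes of each list in each direction by size, and the 5 genes most correlated with Ehf. Genes called only with the block, remaining genes below those limits, Spdef's targets, Gm26642 and the neighbours were added after their values were seen. Alternatives were equal upper quartile, equal sum, replicate block, batch term (replicates 1 and 2 against 3 and 4), replicates 3 and 4 averaged, no trend, a mean value of at least 0, and single samples left out. GC correction (lowess), also with the block, and a mean value of at least 5 were added after seeing the data. Positions are from GENCODE M21 (GRCm38), promoters from RefSeq (GRCm38.p6). One marker gene is not reported here.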

Additional observations from a re-analysis of the deposited data

Results flagged for a closer look

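Among the 34 named genes, 68 groups of 4 samples were examined, and 5 held a sample whose distance from the nearest of the other 3, as a share of the group's range, was above Dixon's 95% critical value for 4 samples, where chance gives about 1 in 20 groups. Control replicate 2 was that sample for Sp1 (10.39, nearest 10.20), Klf11 (7.75, nearest 7.64) and Ppp1r1b (2.24, nearest 2.26). GRHL2 replicate 4 was at 7.59 for Klf11 (nearest 7.43), and GRHL2 replicate 2 at 4.2 for Ovol2 (nearest 4.01). By this rule 0 were found among the 9 factors.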

How the results depend on the processing

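Ehf and Etv4 kept their direction and their call in all 18 alternatives, with Ehf at 1.04 to 1.29 and Etv4 at 0.21 to 0.30, and Ets2 stayed uncalled and below 0 in all 18. The cause of the changes that follow was not tested. With replicates 3 and 4 averaged, and with no mean-variance trend, Elf3 (0.62 and 0.60) and Ets1 (-0.34 and -0.33) were no longer called. Calls were gained by Etv5 with the replicate block (0.16), the batch term (0.16) and the GC correction with the block (0.15), by Klf4 with the block (-0.29), the batch term (-0.29) and the GC correction without and with the block (-0.36 in both), and by Spdef with the batch term (-0.067) and the GC correction without and with the block (-0.12 in both). Klf5 changed sign with an equal upper quartile (0.015), an equal sum (0.017), replicates 3 and 4 averaged (0.021) and the GC correction without and with the block (0.0040 in both). The equal quartile and equal sum move every gene by the same amount, the median of all genes going from 0.0066 to 0.029 and 0.031, so these changes of a value near 0 say nothing of Klf5. Leaving out single samples gave 0.45 to 0.69 for Elf3, 0.13 to 0.21 for Etv5, -0.38 to -0.24 for Ets1, -0.37 to -0.22 for Klf4 and -0.079 to 0.041 for Klf5. A mean value of at least 5 leaves out Spdef.

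The factors called lower numbered 2 with the block, 3 with the batch term, 0 with replicates 3 and 4 averaged, 0 with no trend, 3 with the GC correction without and with the block, and 0 to 1 without single samples. Of the other ETS genes, 4 were higher with the block, the batch term and the GC correction with the block, and 0 with a mean of at least 5, and the lower numbered 2, 2 and 3 with those first settings, 0 with replicates 3 and 4 averaged, and 0 to 1 without single samples. Of the KLF and SP genes, 0 were higher with a mean of at least 5, and 1 lower with replicates 3 and 4 averaged and 3 to 5 without single samples. Of the ERK output genes, 4 were higher with an equal upper quartile, 7 with the block, 5 with the batch term, 1 with replicates 3 and 4 averaged, 6 with the GC correction with the block, and 1 to 3 without single samples, and the lower numbered 2 with the block, the batch term and the GC correction with the block, and 0 to 1 without single samples. Of the targets, 5 were higher with the batch term, 1 with replicates 3 and 4 averaged and 1 to 2 without single samples, and 1 was lower with the block, the batch term and the GC correction with the block. Over all genes, limma called 1957 higher and 1104 lower. The higher numbered 3064 with an equal upper quartile, 3396 with the replicate block, 3270 with the batch term, 3157 with the GC correction with the block and 715 with a mean of at least 5. The lower numbered 2589 with the block, 2478 with the batch term, 521 with replicates 3 and 4 averaged, 2751 with the GC correction with the block and 690 to 1036 without single samples. Of all calls 63.9% were increases, against 75.9% with an equal upper quartile and 77.0% with an equal sum, and 44.3% with a mean of at least 5 and 53.4% with the GC correction with the block. Depth is unknown, and the rlog understates changes of low genes such as Spdef.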

Other observations

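The nearest protein-coding genes of the table on either side of the 9 factors, 18 in all, gave 2 called higher, 2 called lower and 14 not called, close to the share of all genes called (16.4%). With the replicate block 10 were called, 4 higher and 6 lower, where 32.1% of all genes were called. Beside Ehf, the catalase gene Cat (151 kb away) differed by -0.18 (adjusted p = 0.0503, limma, and 0.0101 with the replicate block) and Apip (171 kb) by 0.03 (adjusted p = 0.883), so neither neighbour moved up with Ehf. Beside Elf3, the aminopeptidase gene Rnpep (4.14 kb) rose by 0.14 (adjusted p = 0.0392) and Arl8a (97.3 kb) differed by -0.12 (adjusted p = 0.0881, and 0.0203 with the block). Tra2b, a splicing factor gene 115 kb from Etv5, fell by 0.26 (adjusted p = 0.0376). Dyrk1a, a kinase gene 1007 kb from Ets2, fell by 0.31 (adjusted p = 0.0135). Klf12, 556 kb from Klf5, rose by 0.05 (adjusted p = 0.0289). Beside Etv4, Dhx8 (2.38 kb) differed by -0.05 (adjusted p = 0.450) and Meox1 (92.1 kb) by 0.03 (adjusted p = 0.308).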
